A study of Mus musculus with 8 samples.

Results

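Mybl1, Tcfl5, Rfx2, Sox30, Crem, Fhl5, Brdt, Taf7l and Scml2 are 9 mouse genes for proteins that regulate transcription or chromatin in male germ cells. They were chosen by gene symbol, and all 9 were listed in each of the 8 libraries, among 16282 genes that were. RNA of whole testis was sequenced from males with an IAP insertion, a copy of an endogenous retrovirus, in the locus of Dnmt3C, a DNA methyltransferase that acts in male germ cells. Homozygotes, labelled Dnmt3C IAP/IAP and called mutants here, were set against heterozygotes, labelled Dnmt3C IAP/WT and called controls, so every control also carried the insertion on one allele. All animals were on a hybrid background of C3H/HeJ and C57BL/6J. At 16.5 days post coitum (dpc) there was 1 mutant and 1 control library, at 10 days post partum (dpp) again 1 and 1, and at 20 dpp 2 and 2. The labels do not state whether libraries sharing a genotype and age are from different animals, and p-values therefore reflect only how these libraries vary. Reads on genes ran from 57166311 to 155742823 per library. The genotype labels were not checked on Dnmt3C itself, which was not analysed here.

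In the first wave of spermatogenesis, germ cells pass together from spermatogonia through meiotic prophase to round spermatids, and each step switches on its own set of genes. Mybl1 (A-MYB) and Tcfl5, a basic helix-loop-helix factor, activate genes of pachytene spermatocytes, among them the precursors and proteins of pachytene piRNAs. Rfx2 acts on genes of cilia and flagella, Sox30 and Crem on genes of spermatids, and Fhl5 (ACT) is a LIM-domain coactivator of CREM. Brdt is the testis member of the BET family, whose bromodomains bind acetylated histones, Taf7l is a germ cell relative of the TFIID subunit Taf7, and Scml2 is a Polycomb protein of the germ line. In GRCm38, the build called mm10, these protein-coding genes span 9667415 to 9700209 on chromosome 1 (Mybl1), 180621956 to 180642708 on chromosome 2 (Tcfl5), 56775897 to 56831013 on chromosome 17 (Rfx2), 45980310 to 46017994 on chromosome 11 (Sox30), 25199908 to 25242876 on chromosome 4 (Fhl5) and 107331159 to 107387058 on chromosome 5 (Brdt). Taf7l (134460118 to 134476490) and Scml2 (161117193 to 161258213) are on the X chromosome, and Crem is on chromosome 18.

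The first question was how the 9 genes changed with age. The answer is a description, because the early ages have 1 library per genotype. No age between 10 and 20 dpp was sampled, so genes that rose in that interval cannot be ordered in time. The genes are ranked below by the ratio of 20 dpp to 10 dpp. Levels are given as RPM, the reads of a gene over all gene reads of its library, brought to a common total. In control testes 7 of the 9 had their highest level at 20 dpp, while Taf7l and Scml2 had theirs at 10 dpp, so those 2 did not follow the name of late regulators. In controls 7 genes were at least 4-fold higher in both 20 dpp libraries than in the 10 dpp library, beside 10.3% of all 16578 genes compared, and 2, Taf7l and Scml2, were at least 2-fold lower, beside 32.4% of all genes. In mutants 2 genes, Sox30 and Brdt, were at least 4-fold higher in both 20 dpp libraries, beside 2.56% of all genes, and 1, Fhl5, was at least 2-fold lower, beside 7.02%. With median-of-ratios scaling over the genes listed at all ages, Scml2 in controls was at 0.499 and 0.551 of its 10 dpp level. It then missed the 2-fold rule, and the share of all genes is not given on that scale. The difference between the genotypes in the counts above was not tested.

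**Figure D1:**
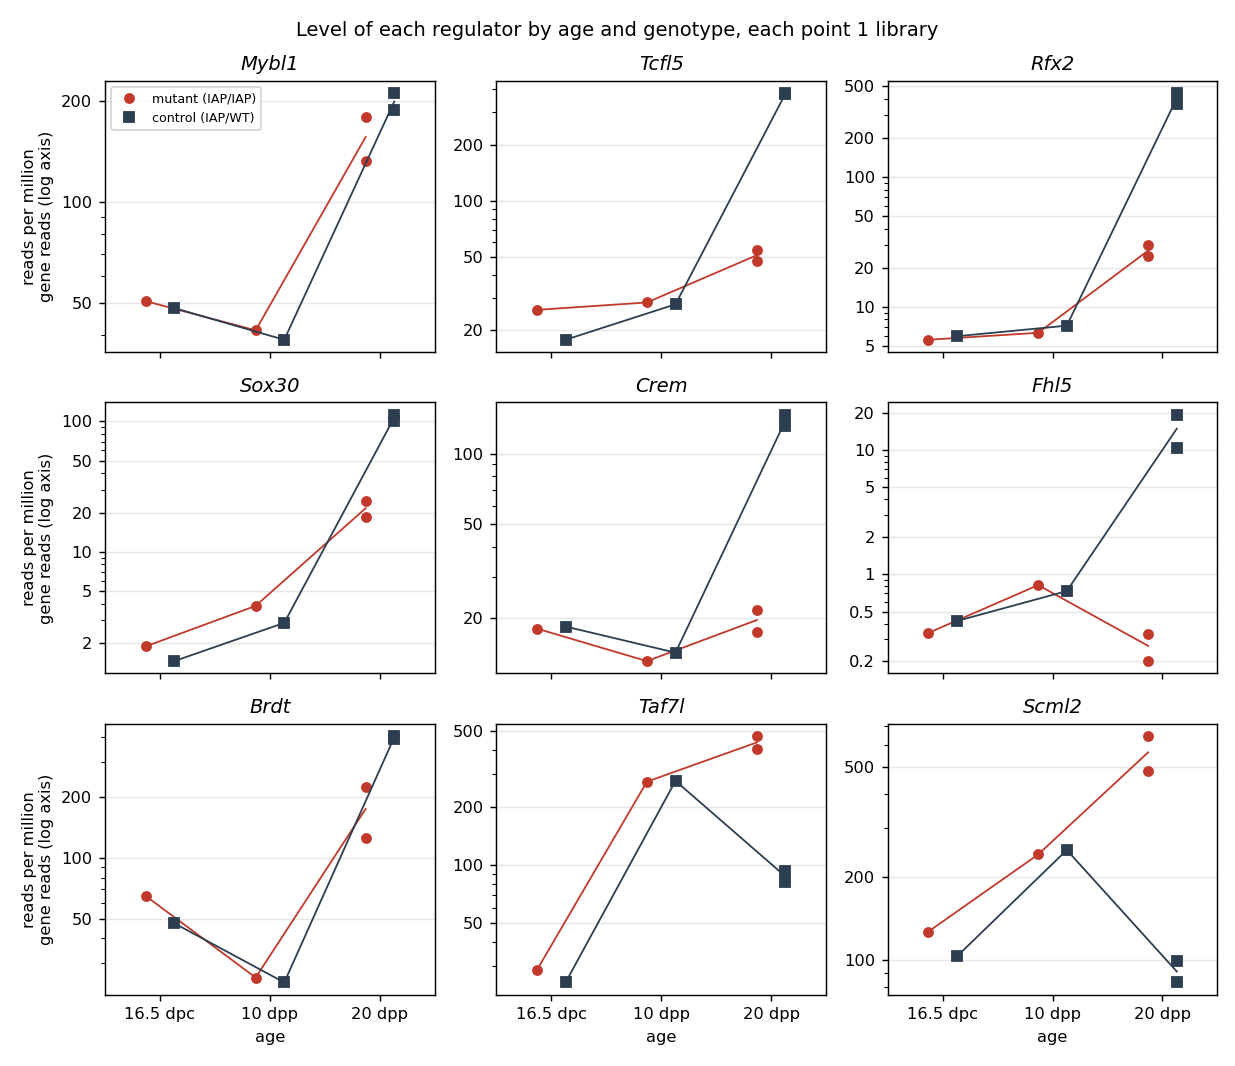
Level of each gene (vertical log axis, RPM) at the 3 ages, with mutant libraries as circles left of control libraries as squares, 1 point per library and lines through the means. At 10 dpp the genotypes lie furthest apart for Sox30, at 3.85 RPM in the mutant and 2.85 in the control library. At 20 dpp Taf7l and Scml2 are higher in mutants and the other 7 lower. For Mybl1 the nearest libraries of 20 dpp, at 179 RPM (mutant) and 187 (control), lie close together.

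Mybl1 was already present in fetal testis, at 50.5 RPM in the mutant and 48.2 in the control library of 16.5 dpc, and at 41.4 in the mutant and 38.8 in the control library of 10 dpp. At 20 dpp it stood at 179 and 133 RPM in mutants and at 187 and 210 in controls. Both genotypes were thus above their 10 dpp library, by 4.33-fold and 3.20-fold in mutants and by 4.82-fold and 5.43-fold in controls. At 20 dpp the higher mutant library lay close below the lower control, without overlap.

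Tcfl5 had 25.8 RPM in the mutant and 17.8 in the control library of 16.5 dpc, and 28.3 in the mutant and 27.6 in the control library of 10 dpp. At 20 dpp it had 54.4 and 47.4 RPM in mutants, against 380.3 and 378 in controls. The 20 dpp level was 1.92-fold and 1.68-fold that of 10 dpp in mutants and 13.8-fold and 13.7-fold in controls. The 2 control libraries nearly coincided, and both mutant libraries lay far below them.

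Rfx2 showed the largest increase from 10 to 20 dpp of the 9 in controls. It had 5.57 RPM in the mutant and 5.93 in the control library of 16.5 dpc, 6.30 in the mutant and 7.15 in the control library of 10 dpp, and 29.7 and 24.5 in mutants against 441 and 366 in controls at 20 dpp. The 20 dpp level was 4.71-fold and 3.89-fold that of 10 dpp in mutants and 61.6-fold and 51.2-fold in controls. Rfx2 was thus above its 10 dpp level in both genotypes, and no mutant library came near the control increase.

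Sox30 was low at both early ages. It had 1.88 RPM in the mutant and 1.45 in the control library of 16.5 dpc, and 3.85 in the mutant and 2.85 in the control library of 10 dpp. At 20 dpp it had 24.7 and 18.5 RPM in mutants and 113 and 101 in controls. It was 6.42-fold and 4.79-fold above 10 dpp in mutants and 39.5-fold and 35.5-fold above it in controls. Among the 9 genes Sox30 was second in both genotypes when ranked by this increase.

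Crem, whose products include both activators and repressors of cAMP-responsive genes, was expressed at every age. It had 18.1 RPM in the mutant and 18.4 in the control library of 16.5 dpc, 13.1 in the mutant and 14.3 in the control library of 10 dpp, and 21.8 and 17.5 in mutants against 146 and 131 in controls at 20 dpp. In mutants the 20 dpp level was therefore near that of the fetal testis, 1.66-fold and 1.33-fold above 10 dpp, and in controls it was 10.2-fold and 9.14-fold above. The gene tables do not separate Crem isoforms, so which of them were counted cannot be read from these values.

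Fhl5, the coactivator of CREM, was close to the lowest listed counts outside 20 dpp controls. It had 25 reads in the mutant and 24 in the control library of 16.5 dpc, 53 in the mutant and 49 in the control library of 10 dpp, and 42 and 19 reads in mutants against 1711 and 1624 in controls at 20 dpp. In RPM the 20 dpp values were 0.33 and 0.20 in mutants and 19.2 and 10.4 in controls. The 20 dpp mutants were below the 10 dpp mutant, at 0.404-fold (95% interval 0.263 to 0.617) and 0.244-fold (0.137 to 0.420) of it, and the controls were 26.3-fold and 14.2-fold above their 10 dpp library. Intervals given for ratios between single libraries are exact binomial ones and cover counting error only.

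Brdt was lowest at 10 dpp in both genotypes. It had 64.8 RPM in the mutant and 47.4 in the control library of 16.5 dpc, then 25.5 in the mutant and 24.1 in the control library of 10 dpp, and at 20 dpp 226 and 125 in mutants against 391 and 404 in controls. The increase over 10 dpp was 8.85-fold and 4.91-fold in mutants, the largest mean increase of the 9 there, and 16.2-fold and 16.7-fold in controls. The 2 mutant libraries differed more from each other than the 2 controls did.

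Taf7l and Scml2 differed from the other 7 in being lower at 20 dpp than at 10 dpp in controls. Taf7l had 28.5 RPM in the mutant and 24.5 in the control library of 16.5 dpc, 272 in the mutant and 275 in the control library of 10 dpp, and 470.2 and 401 in mutants against 81.5 and 93.1 in controls at 20 dpp. Scml2 had 127 in the mutant and 103 in the control library of 16.5 dpc, 241 in the mutant and 250.4 in the control library of 10 dpp, and 646 and 483 in mutants against 83.1 and 99.1 in controls at 20 dpp. In mutants both genes were highest at 20 dpp, whereas in controls their 20 dpp level was 0.297-fold and 0.339-fold (Taf7l) and 0.332-fold and 0.396-fold (Scml2) that of 10 dpp.

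Ranked by the mean increase over 10 dpp, the controls gave the order Rfx2, Sox30, Fhl5, Brdt, Tcfl5, Crem, Mybl1, Scml2, Taf7l, and the mutants gave Brdt, Sox30, Rfx2, Mybl1, Scml2, Tcfl5, Taf7l, Crem, Fhl5. In controls Fhl5 and Brdt were neighbours that could not be separated, because the Fhl5 libraries (26.3-fold and 14.2-fold) enclosed those of Brdt and one of them lay near Tcfl5, and the libraries of Scml2 overlapped those of Taf7l. In mutants the libraries of Brdt overlapped those of Sox30, those of Rfx2 overlapped those of Mybl1, and those of Taf7l overlapped those of both Tcfl5 and Crem, so the order within these neighbours, the first place of Brdt included, could not be told. Both orders were the same with upper-quartile scaling and with median-of-ratios scaling over the genes listed at all ages. Fhl5 took the last place in mutants and the third in controls.

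**Figure D2:**
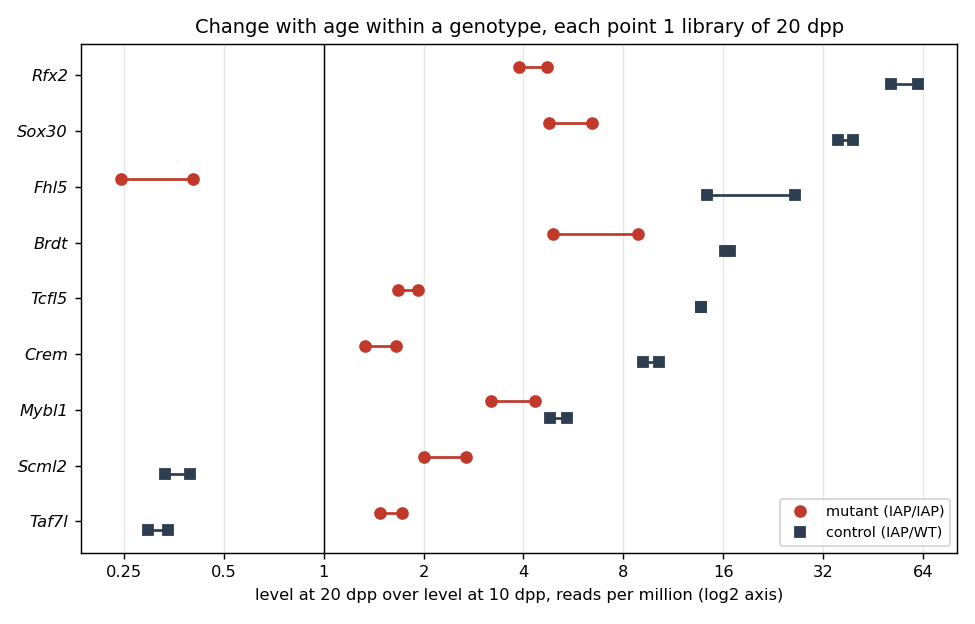
Level at 20 dpp over the level at 10 dpp (horizontal log2 axis, ratio of RPM) for each gene, with mutants as circles above controls as squares and 1 point per 20 dpp library, both divided by the single 10 dpp library of their genotype. Controls run from 61.6-fold for Rfx2 to 0.297-fold for Taf7l, and mutants from 8.85-fold for Brdt to 0.244-fold for Fhl5.

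Levels of different genes were compared as RPM per kilobase of exon, over both libraries of a genotype at 20 dpp (mean ± SD, n = 2 each). In mutants the order was Taf7l (194 ± 21.7), Scml2 (92.9 ± 19.0), Brdt (34.3 ± 13.9), Mybl1 (28.8 ± 6.11), Tcfl5 (16.1 ± 1.57), Sox30 (7.21 ± 1.48), Rfx2 (3.71 ± 0.503), Crem (3.33 ± 0.510) and Fhl5 (0.226 ± 0.0786), and the libraries of Brdt overlapped those of Mybl1 and those of Rfx2 overlapped those of Crem. In controls the order was Tcfl5 (119.8 ± 0.418), Brdt (77.7 ± 1.77), Rfx2 (55.2 ± 7.21), Taf7l (38.9 ± 3.66), Mybl1 (36.8 ± 3.05), Sox30 (35.7 ± 2.66), Crem (23.5 ± 1.89), Scml2 (15.0 ± 1.85) and Fhl5 (12.7 ± 5.31). Among control neighbours Taf7l, Mybl1 and Sox30 overlapped, as did Scml2 and Fhl5. The 2 X-linked genes were thus the most abundant of the set in mutants, and Tcfl5 was the most abundant in controls.

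Promoters of RefSeq (GRCm38.p6, 250 bases before to 50 bases after the start) were available for 7 of the 9 genes, not for Mybl1 and Crem. They were searched on both strands for MYB hexamers, namely the letters CAACGG or their variant CAACTG, and also the letters TAACGG or their variant TAACTG, and 28.3% of 32851 promoters held at least one. The Tcfl5 promoter held 4 such matches and the Rfx2 promoter 3, numbers reached by 0.149% (at least 4) and 0.743% (at least 3) of all promoters, and Taf7l held 1. The windows from base -200 to base -17 of these 3 promoters are shown because they carry all those matches, 5′ to 3′ along the gene, minus strand, with the MYB letters in capitals.
Tcfl5, chr2:180642708-180642891: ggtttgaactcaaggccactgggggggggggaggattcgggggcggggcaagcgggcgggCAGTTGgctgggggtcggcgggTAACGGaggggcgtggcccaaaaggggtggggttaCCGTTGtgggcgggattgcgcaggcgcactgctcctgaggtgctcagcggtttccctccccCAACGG
Rfx2, chr17:56831025-56831208: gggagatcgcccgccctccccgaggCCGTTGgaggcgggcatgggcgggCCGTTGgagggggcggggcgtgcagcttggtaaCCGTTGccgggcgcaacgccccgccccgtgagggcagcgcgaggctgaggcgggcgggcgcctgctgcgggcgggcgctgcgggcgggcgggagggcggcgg
Taf7l, chrX:134476507-134476690: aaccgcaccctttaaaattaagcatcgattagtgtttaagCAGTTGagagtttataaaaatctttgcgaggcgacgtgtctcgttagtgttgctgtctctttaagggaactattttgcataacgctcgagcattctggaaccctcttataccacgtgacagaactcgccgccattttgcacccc
The MYB matches of Tcfl5 began at bases -140, -118, -83 and -22 and those of Rfx2 at -175, -151 and -118, while that of Taf7l began at -160. In both Tcfl5 and Rfx2 some of these letters were shared with a short RFX element (GTTNCC, in 45.3% of promoters), which began at -120 and -87 in Tcfl5 and at -123 and -116 in Rfx2. Sox30, Fhl5, Brdt and Scml2 held no MYB match in their windows, Fhl5 being searched at 2 starts. For Scml2 the bases -200 to -17 were 161162550 to 161162733. These lie inside the GENCODE span of the gene, which begins at 161117193, so the promoter at that end was not searched. The full CRE (TGACGTCA, in 1.79% of promoters) was in none of the 7, the short CRE element TGACG (20.8%) was in Rfx2, the SOX letters AACAAT (10.7%) were in Fhl5 and the E-box CACGTG (7.15%) was in Brdt and Taf7l. A match is a description of letters, and binding was not measured here.

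At 20 dpp, the age with replicates, all 9 genes passed the test between the genotypes, beside 59.5% of all genes. Mybl1, Tcfl5, Rfx2, Sox30, Crem, Fhl5 and Brdt fell in mutants, and Taf7l and Scml2 rose. The test was limma on the deposited log2 values, two-sided, with Benjamini-Hochberg adjustment over all 17194 genes and a threshold of 0.05. Of all genes 33.1% passed as lower and 26.4% as higher in mutants, so passing by itself was common at this age. None of the 9 had overlapping libraries on the normalised scale. The share of all genes without overlap is not given here, so this separation is a description and sets the 9 apart from no other genes. The fall was deepest for Fhl5 and shallowest for Mybl1, and the share of all genes with a lower change was 1.99% for Fhl5, 4.64% for Rfx2, 6.85% for Tcfl5, 7.13% for Crem, 8.82% for Sox30, 14.7% for Brdt and 25.35% for Mybl1. In bulk tissue, fewer cells of a type and less RNA per cell cannot be told apart.

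Several sets of cell markers of the testis moved at the same age. All 8 listed of 9 pachytene markers fell (median log2 change -7.31), and their summed level was 181 to 256 RPM in mutants and 7498 to 7984 in controls. All 7 listed of 8 spermatid markers fell as well, with sums of 7.94 to 9.47 RPM in mutants and 211 to 323 in controls. Of 14 leptotene and zygotene markers 4 rose and 8 fell (median -0.61), with sums of 2512 to 2890 RPM in mutants and 3090 to 3549 in controls. With total gene reads as the scale 5 of them rose and 3 fell (median -0.01), so the majority direction was not kept. All 10 Sertoli markers rose, with sums of 5612 to 6362 in mutants and 1885 to 2112 in controls. Other somatic sets were less uniform on the deposited scale. Of 6 Leydig markers 1 rose and 5 did not pass. Of 5 listed macrophage and leukocyte markers 1 fell and 4 did not pass. Of 5 endothelium markers 2 rose, 1 fell and 2 did not pass, and of 5 peritubular myoid markers 3 rose and 2 did not pass. With total gene reads as the scale, 2 Leydig, 3 macrophage and leukocyte, 3 endothelium and all 5 peritubular myoid markers rose. On that scale 1 macrophage and leukocyte marker still fell. On the deposited scale 6 of 10 undifferentiated and 4 of 6 differentiating spermatogonia markers rose, and 1 of each set fell. Of 5 markers of all germ cells 3 fell and 2 did not pass. The part of these shifts in the changes of the 9 genes was not tested.

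Among the meiotic activators, Mybl1 had 16249 and 12423 normalised reads in mutants, against 26898 and 28390 in controls. Both mutant libraries were lower than both controls, and the log2 change was -0.96 ± 0.15 (SE; 95% interval -1.32 to -0.60; limma adjusted p = 0.00139). This was the smallest change of the 9, and with total gene reads as the scale it was -0.36 with a limma adjusted p of 0.0807, which did not pass. Tcfl5 had 4935 and 4443 normalised reads in mutants, against 54708 and 51087 in controls. The mutants thus held 8.86% of the control mean, and the log2 change was -3.50 ± 0.12 (limma adjusted p = 1.6e-06). Exons of Col9a3, a collagen gene on the opposite strand, overlap Tcfl5; Col9a3 changed by 1.42 ± 0.29 on the log2 scale in the other direction, and whether counting used strand is not given in the sources used here.

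Levels per kilobase were also set against Mybl1 in the same library. Because Mybl1 was lower in mutants too, these ratios differ less between the genotypes than the levels themselves. Tcfl5 stood at 0.518 and 0.610 of Mybl1 in 20 dpp mutants and at 3.47 and 3.07 times Mybl1 in controls. Rfx2 stood at 0.123 and 0.137 of Mybl1 in mutants and at 1.74 and 1.29 in controls, and Crem at 0.111 and 0.121 in mutants and 0.717 and 0.569 in controls. For Tcfl5, Rfx2 and Crem the mutant and control ratios did not overlap, and the scale of a library cancels in such a ratio. In the 10 dpp libraries Tcfl5 was level with Mybl1 in both genotypes, at 1.17 in the mutant and 1.22 in the control.

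Among the factors of cilia and spermatids, Rfx2 had 2695 and 2297 normalised reads in mutants, against 63428 and 49463 in controls. The mutant mean was 4.42% of the control mean, and the log2 change was -4.49 ± 0.16 (95% interval -4.87 to -4.12; limma adjusted p = 1.7e-06). Sox30 had 2244 and 1731 normalised reads in mutants, against 16210.1 and 13689 in controls, a log2 change of -2.92 ± 0.17 (limma adjusted p = 1.0e-05). Crem had 1974 and 1642 normalised reads in mutants, against 21045 and 17623 in controls, a log2 change of -3.42 ± 0.16 (limma adjusted p = 3.8e-06). The mutant mean was 9.35% of the control mean for Crem and 13.3% for Sox30, and for both genes the libraries were far apart. Gm6225, a predicted gene on the strand opposite to Crem that overlaps its exons, fell by 1.94 ± 0.38 on the log2 scale.

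Fhl5 had 29.9 and 18.7 normalised reads in mutants, against 2766 and 1408 in controls. The mutants kept 1.17% of the control mean, with a log2 change of -6.32 ± 0.46 (95% interval -7.40 to -5.24; limma adjusted p = 2.6e-05), the deepest fall and the widest interval of the 9. The first control library was higher than the second, and the change was -5.83 without the first and -6.81 without the second. Relative to Crem, whose product it binds, Fhl5 per kilobase stood at 0.0763 and 0.0574 in mutants and at 0.662 and 0.402 in controls. It was thus lower than Crem in every 20 dpp library, and by more in mutants.

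Among the chromatin and general factors, Brdt had 20465 and 11748 normalised reads in mutants, against 56225 and 54492 in controls. Both mutants were below both controls, with a log2 change of -1.84 ± 0.24 (95% interval -2.40 to -1.28; limma adjusted p = 5.2e-04). The change was -1.44 without the second mutant library and -2.24 without the first, so the size of the fall depended on which mutant was kept, while the direction did not. Brdt and Mybl1 had the shallowest falls. In normalised reads the mutant mean was 29.1% (Brdt) and 51.9% (Mybl1) of the control mean. The other 5 that fell ran from 1.17% to 13.3% on that scale. In RPM, which scales by total gene reads, the shares were 44.2% (Brdt) and 78.5% (Mybl1), beside 1.79% to 20.2% for the other 5.

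Taf7l had 42647 and 37632 normalised reads in mutants, against 11726 and 12573 in controls, a log2 change of 1.72 ± 0.12 (limma adjusted p = 2.5e-05). Scml2 had 58613 and 45239 normalised reads in mutants, against 11962 and 13374 in controls, a log2 change of 2.03 ± 0.15 (limma adjusted p = 3.3e-05). Both X-linked genes were higher in every mutant library than in any control. Of 648 tested genes on the X chromosome 69.8% passed as higher in mutants (median log2 change 0.99), against 24.7% of 15702 autosomal genes (median near 0), and 42 X-linked genes had a larger change than Taf7l and 18 a larger one than Scml2. As background, genes on the X are silenced in pachytene spermatocytes. The median X-linked gene at 20 dpp was at 0.944 of its 10 dpp level in mutants and at 0.323 in controls, and the decline of Taf7l (0.318) and Scml2 (0.364) in controls was close to that median. In mutants Taf7l stood at 1.60 and Scml2 at 2.34 times the 10 dpp level, above the X-linked median of that genotype.

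**Figure D3:**
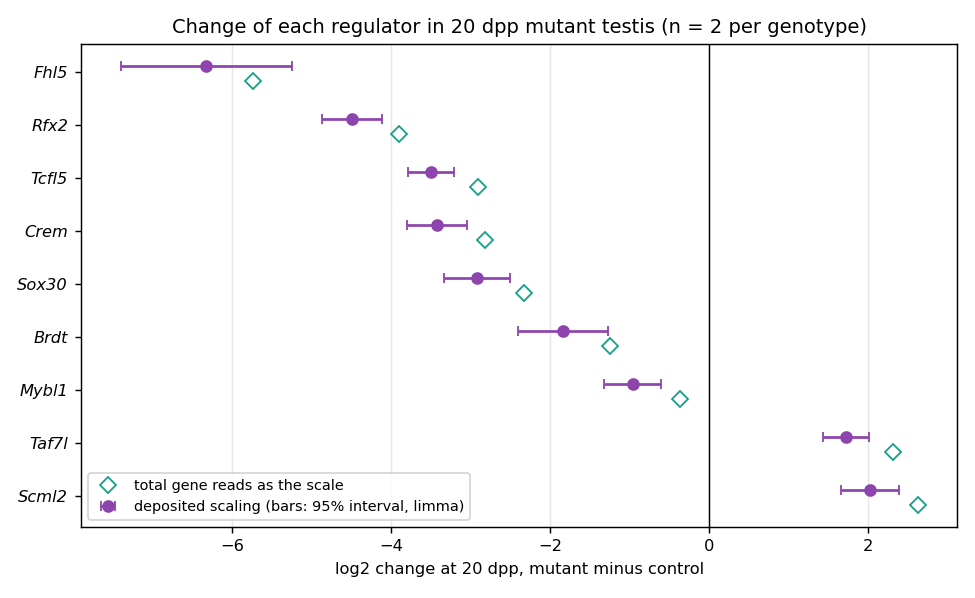
Log2 change at 20 dpp, mutant minus control (horizontal axis), for each gene from limma on the deposited values (filled circles, bars for the 95% interval, n = 2 libraries per genotype) and with total gene reads as the scale (open diamonds). The changes run from -6.32 for Fhl5 to 2.03 for Scml2, and with total gene reads each lies further to the right.

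Scaling by total gene reads shifted the median change of all genes by 0.594 on the log2 scale, and then 22.1% of all genes passed as lower and 49.0% as higher. On that scale Tcfl5 (-2.90), Rfx2 (-3.90), Sox30 (-2.32), Crem (-2.82), Fhl5 (-5.74) and Brdt (-1.24) still fell and Taf7l (2.32) and Scml2 (2.62) still rose, leaving Mybl1 as the single call lost. Scaling by repeat families shifted the median by -0.106, and all 9 calls were kept.

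Taf7l has a relative on chromosome 10 that RefSeq names Taf7l2 and the files list as 4933416C03Rik, picked out here after its values were seen. In RPM Taf7l2 had 1.95 in the mutant and 1.14 in the control library of 16.5 dpc, 12.7 in the mutant and 11.7 in the control library of 10 dpp, and 70.7 and 43.7 in mutants against 309 and 301 in controls at 20 dpp. The autosomal relative was thus higher at 20 dpp than at 10 dpp in controls, where Taf7l was lower, and at 20 dpp it fell in mutants by 3.05 ± 0.21 on the log2 scale (limma adjusted p = 1.9e-05). Per kilobase, Taf7l exceeded Taf7l2 by 6.68-fold and 9.22-fold in 20 dpp mutants and stood at 0.264 and 0.311 of it in controls, against 21.5-fold in the mutant and 23.7-fold in the control library of 10 dpp. The order of the pair was therefore turned round only in the 20 dpp controls among these libraries. The GENCODE transcripts of the pair shared 0 of the 2245 words of 50 bases found in Taf7l, and read sharing through mismatches was not tested.

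Within the same library, several of the regulators were also set against a relative, per kilobase. Taf7l over Taf7, the general TFIID subunit, was 7.54 and 6.60 in 20 dpp mutants and 2.28 and 2.43 in controls, after 3.16 in the mutant and 3.70 in the control library of 10 dpp. Scml2 over its Polycomb relative Scmh1 was 8.85 and 5.63 in 20 dpp mutants and 0.653 and 0.860 in controls, after 5.60 in the mutant and 5.65 in the control library of 10 dpp. For both X-linked genes the 20 dpp mutants lay above the controls, and Scml2 exceeded Scmh1 in all libraries but the 20 dpp controls.

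Rfx2 over Rfx3, a factor of motile cilia, was 1.18 and 1.06 in 20 dpp mutants and 23.5 and 27.7 in controls. Crem over Creb1, the common cAMP-response factor, was 0.475 and 0.357 in mutants and 6.41 and 4.87 in controls. Mybl1 over Mybl2 was 6.80 and 4.99 in mutants and 8.63 and 13.4 in controls. In each of these ratios the genotypes did not overlap at 20 dpp, and the Mybl1 ratio came closest to doing so. Of the relatives, Rfx3, Creb1, Taf7 and Mybl2 did not pass the test at 20 dpp, with log2 changes of 0.02, 0.34, 0.14 and -0.08, and with total gene reads as the scale Rfx3 (0.62), Creb1 (0.94) and Taf7 (0.73) did. Scmh1 itself fell at 20 dpp, by 1.21 on the log2 scale (limma adjusted p = 3.9e-04) and by 0.61 with total gene reads as the scale (limma adjusted p = 0.00472), so the Scml2 ratio holds a change of both genes.

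**Figure D4:**
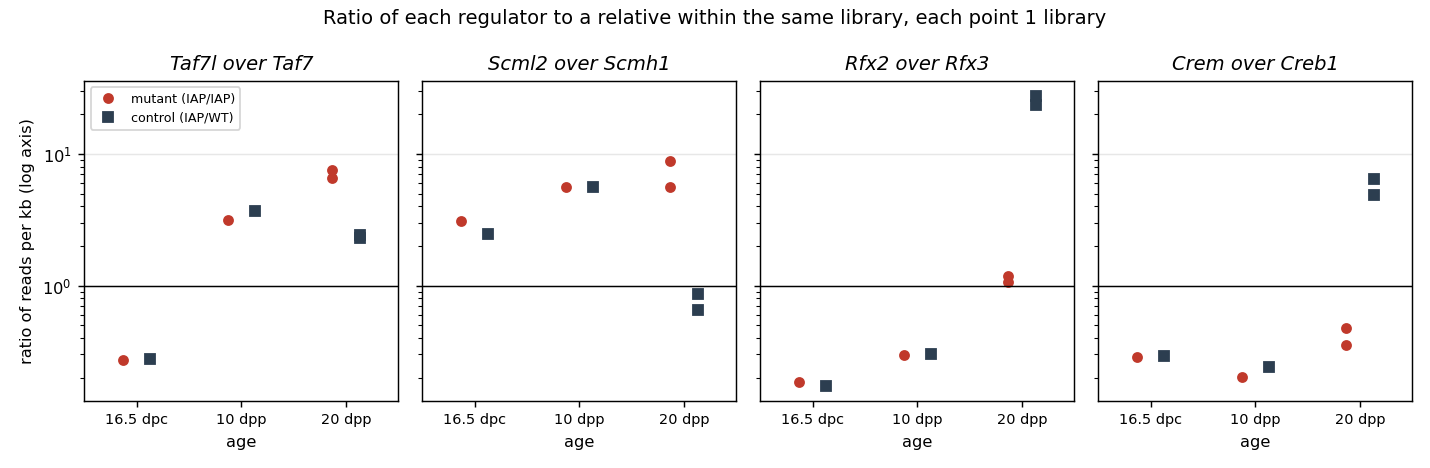
Ratio of reads per kilobase (vertical log axis) of Taf7l over Taf7, Scml2 over Scmh1, Rfx2 over Rfx3 and Crem over Creb1 at the 3 ages, 1 point per library, mutants as circles left of controls as squares. At 20 dpp the Rfx2 ratio is 1.18 and 1.06 in mutants against 23.5 and 27.7 in controls, and the Taf7l and Scml2 ratios are higher in mutants.

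At 16.5 dpc and 10 dpp the 9 genes were compared between 1 mutant and 1 control library without a test. None of the 9 met the rule of a ratio of at least 2-fold with an interval excluding 1 and at least 50 reads, which 0.734% of genes met at 16.5 dpc and 0.886% at 10 dpp. At 10 dpp the ratios of mutant to control ran from 0.888 for Rfx2 (95% interval 0.776 to 1.02) to 1.36 for Sox30 (1.12 to 1.65), with Taf7l at 0.999 (0.978 to 1.02), Scml2 at 0.972 (0.951 to 0.993) and Brdt at 1.07 (0.995 to 1.14). For Taf7l, with 17656 reads in the mutant and 18392 in the control library, counting error leaves little room for a difference between these libraries. For Fhl5 the interval of 0.748 to 1.69 around 1.13 is too wide to show a moderate one.

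At 16.5 dpc Tcfl5 stood at 1.45 times the control library (1.34 to 1.57), Brdt at 1.37 (1.31 to 1.43), Scml2 at 1.23 (1.19 to 1.27) and Taf7l at 1.16 (1.09 to 1.25), while the intervals of Mybl1, Rfx2, Sox30, Crem and Fhl5 included 1. Among all genes the ratio ran from 0.760 at the 5th to 1.45 at the 95th percentile, so Tcfl5 lay at the edge of that range and the others inside it. All 5 germ cell markers were also above 1 in this pair, with a median of 1.23 (1.06 to 1.39), and their part in the ratios of the regulators was not tested. Over both early ages the ratios of the 9 genes lay between 0.802 and 1.45.

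The close relatives of the 9, a list of 23 genes, moved in both directions at 20 dpp: 6 rose and 11 fell (median log2 change -0.08), beside a median of 0.05 over all genes. With total gene reads as the scale 11 rose and 7 fell and the median turned to 0.52. Those with the lowest p were Tbpl1 (-2.94 ± 0.13, limma adjusted p = 2.9e-06), a TBP relative needed in spermatids, Rfx4 (-7.90 ± 0.40, limma adjusted p = 5.3e-06) and Sfmbt1 (-2.0 ± 0.13, limma adjusted p = 1.3e-05), a protein with MBT repeats. Rfx4 was near silent outside 20 dpp controls. It had 0.95 and 0.378 RPM in 20 dpp mutants against 99.0 and 94.5 in controls, and 0.262 in the mutant and 0.179 in the control library of 10 dpp. Those that rose included the TFIID genes Taf9b (1.66) and Taf4b (1.14) and the LIM genes Fhl1 (1.21), Fhl3 (1.11) and Fhl2 (0.66), opposite to Fhl5.

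Other transcription regulators of spermatocytes and spermatids mostly fell: of 21 listed of 22 genes, 18 fell and 3 rose, with a median of -2.66. Ybx2, an RNA and DNA binding protein of germ cells, had the lowest p (-4.81 ± 0.16), followed by Zmynd15 (-5.46 ± 0.20), a repressor in spermatids, and Gtf2a1l (-7.74 ± 0.36), the testis form of a TFIIA subunit. The 3 that rose were the Y-linked zinc finger genes Zfy2 (2.17 ± 0.27) and Zfy1 (2.12 ± 0.31) and the clock-related repressor Bhlhe41 (0.79 ± 0.25). The limma adjusted p of these 3 was 3.8e-04, 9.7e-04 and 0.0280. The regulators that rose in mutants thus included genes of both sex chromosomes.

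Genes downstream in the same program were listed by their known roles. Of 13 pachytene piRNA genes, a class that Mybl1 and Tcfl5 act on, 12 fell (median -3.30). Those with the lowest p, which were not the 3 deepest falls, were Piwil1 (-7.05 ± 0.22), the piRNA-binding protein of pachytene cells, Ddx25 (-4.24 ± 0.15), an RNA helicase, and Pld6 (-3.90 ± 0.15), the mitochondrial protein of piRNA processing. Fkbp6, a co-chaperone of the pathway, did not pass, at 0.30 ± 0.12 (limma adjusted p = 0.069), and with total gene reads as the scale it rose by 0.90 (limma adjusted p = 5.1e-04). The list was not confined to pachytene cells, and it summed to 820 RPM in the mutant and 602 in the control library of 16.5 dpc. At 20 dpp its sums were 937 to 1023 RPM in mutants and 5738 to 5997 in controls. All 19 listed of 20 flagellum and cilium genes fell (median -5.60), including Ropn1l (-6.51 ± 0.18), Rsph1 (-4.89 ± 0.13), a radial spoke protein, and Ift172 (-4.03 ± 0.14), a protein of intraflagellar transport. The 19 listed flagellum genes summed to 276 to 370.2 RPM in 20 dpp mutants and 8737 to 9833 in controls, while the 18 listed at 10 dpp reached 180 RPM in the mutant library and 191 in the control.

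All 18 listed of 24 post-meiotic genes fell (median -5.96), among them Zpbp (-4.56 ± 0.18), Acr (-8.95 ± 0.39) and Acrv1 (-8.54 ± 0.42), which encode proteins of the acrosome. Of 13 listed of 14 testis enzymes and genes of the meiotic divisions 11 fell (median -2.87), including the chaperones Clgn (-5.79 ± 0.15) and Hspa2 (-4.20 ± 0.15) and the lactate dehydrogenase gene Ldhc (-8.13 ± 0.38), while Ccnb1 (-0.50) and Cdc25c (-0.40) did not pass. In these lists Mybl1 and Brdt had shallower falls than the median of any of the 4, Crem, Tcfl5, Sox30 and Rfx2 lay between the shallowest and deepest median, and Fhl5 lay below them all. Genes near silent at an age are not listed for it, so at 20 dpp the lists of late genes hold the members with reads in all 4 libraries of that age.

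**Figure D5:**
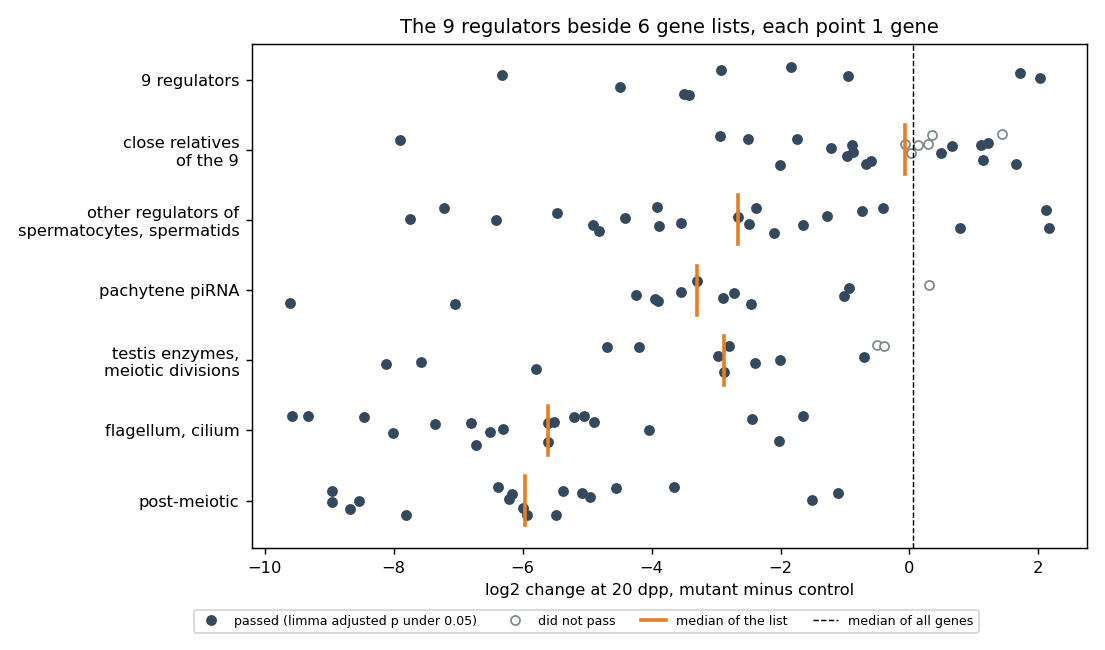
Log2 change at 20 dpp, mutant minus control (horizontal axis), of the 9 regulators and of the listed genes of 6 lists, 1 point per gene, filled where limma's adjusted p was under 0.05, with the median of each list and of all genes. The list medians run from -0.08 for the close relatives to -5.96 for the post-meiotic genes, and the 9 regulators spread from -6.32 to 2.03.

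Likeness of pattern was described over the 8 libraries as the root mean square difference of log2(RPM + 1), each gene centred on its own mean, among 13168 genes. The libraries of 1 age share depth and tissue, so a small difference is a description and carries no test. The nearest gene was H1fx for Mybl1 (0.126), Tex2 for Tcfl5 (0.105), Catsper2 for Rfx2 (0.158), Tsga10 for Sox30 (0.216), Bag5 for Crem (0.0912), Best1 for Fhl5 (0.165), Hemt1 for Brdt (0.224), Ttyh1 for Taf7l (0.229) and Cyb5r1 for Scml2 (0.166). Next in order came Brsk1 and Ccdc73 for Mybl1, Ccdc181 and Ttc12 for Tcfl5, Ccdc176 and Gpr160 for Rfx2, Dmrtc2 and Phyhipl for Sox30, Ankrd45 and Tmem97 for Crem, Izumo1 and Ankrd55 for Fhl5, Caps2 and Pde10a for Brdt, Trank1 and Gca for Taf7l, and Mtmr1 and Tktl1 for Scml2.

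Among the 9 themselves the closest pair on this scale was Crem and its partner Fhl5 (0.443). Next came Tcfl5 and Crem (0.502), Rfx2 and Sox30 (0.606) and Mybl1 and Brdt (0.607). Taf7l and Scml2 were nearer to each other (0.881) than to any of the other 7, from which they differed by 1.39 to 2.89. The pseudocount shrinks the differences of low genes on this scale, which touches Fhl5 most. Fhl5 was at 0.82 RPM or less in every library outside the 20 dpp controls, so its closeness to Crem depends on the pseudocount. In the limma fit at 20 dpp the log2 changes of the pair were apart, at -6.32 for Fhl5 and -3.42 for Crem.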

How the data were processed

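Whole testis RNA-seq gene tables of 8 libraries were used. The deposited values are log2 values, which equalled log2 of a whole count over a library factor plus a pseudocount of 1, and the authors' factors equalled median-of-ratios factors within each age. Counts recovered from them were whole within 0.01 for 100% of values. The lowest listed count was 6 in 7 libraries and 5 in 1, so near-silent genes are not listed. The submitters' processing notes name mm10, TopHat2 2.0.6, HTSeq 0.6.1 and Bowtie 1.0.0. Annotation, strand setting and read length: not given in the sources used here.

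At 20 dpp limma 3.58.1 in R 4.3.3 was fitted to the deposited values with genes and repeat families together (eBayes with a trend, 2 residual and 5.21 prior degrees of freedom), tested on simulated data first, with Benjamini-Hochberg adjustment over genes at 0.05. Fold changes keep the pseudocount of the deposited scale, which understates low genes. Recovered counts over all gene reads of a library gave RPM, and exon lengths and coordinates come from GENCODE M21. Intervals have 95% confidence and come from SciPy 1.17.1 in Python 3.11.15.

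The genes and lists were chosen with earlier results of these data known. Besides the 9 genes, the text names in each list the 3 genes of lowest p and called genes opposite to its median, and the 3 genes nearest in pattern. A gene that the rule also picks is not reported here. Members of lists that did not pass were named after their values were seen. Alternatives covered scaling, pseudocount, filter, moderation, voom weights, genes alone, left-out libraries and a replicate block.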

Additional observations from a re-analysis of the deposited data

Results flagged for a closer look

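Several genes had a ratio of mutant to control at an early age, with a counting interval that excluded 1, on the side of 1 opposite to their 20 dpp change. With 1 library per genotype at the early ages, the difference between ages was not tested. Mybl1 stood at 1.08 (95% interval 1.02 to 1.14) at 10 dpp and fell at 20 dpp. Tcfl5 stood at 1.45 (1.34 to 1.57) at 16.5 dpc and Brdt at 1.37 (1.31 to 1.43), in the pair of libraries where the 5 germ cell markers were also above 1. Sox30 stood at 1.36 (1.12 to 1.65) at 10 dpp, from 250 reads in the mutant and 191 in the control library, and 3.65% of genes had a larger ratio there. Scml2 stood at 0.972 (0.951 to 0.993) at 10 dpp and rose at 20 dpp.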

How the results depend on the processing

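All 9 genes kept their direction at 20 dpp under every alternative run, and the single call lost was Mybl1 with total gene reads as the scale. That scale left 6 regulators called lower and moved the genes called higher from 4539 to 8427 and those called lower from 5689 to 3795. Scaling by repeat families gave 2972 genes called higher. Leaving out each library in turn gave 2945 to 4046 genes called higher, the lowest without control replicate 1. The cause was not tested. Fits that leave out a library assume that the lone sample varies like the other group. The replicate block gave 10059 calls against 10228 without it, changed no call among the 9 genes and rests on numbers alone, since same-numbered libraries deviated together only weakly (correlation 0.036). The order by the ratio of 20 dpp to 10 dpp was the same under 3 scalings. The increase of Rfx2 in controls nevertheless came to 81.9-fold with median-of-ratios scaling. Scml2 then came to 0.525 of its 10 dpp level, and it no longer met the rule of 2-fold lower in both libraries. Of the values of single genes, 167 stayed within the spread or kept their call and 12 moved, all of them ratios of 20 dpp to 10 dpp in controls under other scalings. With 2 libraries per genotype, and 1 at the early ages, biological spread is poorly known, and for Fhl5 low counts limit every value outside 20 dpp controls.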
